A study of Mus musculus with 2 samples.

Results

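The genes described here encode the Fc receptors of macrophages and the adaptors and kinase that carry their signal, namely Fcgr1, Fcgr3, Fcgr4, Fcgr2b, Fcer1g, Tyrobp, Trem2 and Syk. They were chosen by gene symbol in the deposited array table, and all 8 were found, each with 1 probe set, among 22014 genes on the array. Bone-marrow-derived macrophages were grown for 7 days in medium with 20% culture supernatant of L929 fibroblasts, which supplies the macrophage growth factor. The Oasl1-/- cells lack Oasl1 and the WT cells carry it, both are of the C57BL/6J strain, and both were exposed for 9 h to poly(I:C), an artificial RNA duplex used in place of a virus, at 5 µg/ml. For each genotype, RNA from 3 samples was pooled and hybridised to 1 Affymetrix Mouse Gene 1.0 ST array. Neither of the 2 arrays held RNA of untreated cells.

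Fc receptors bind the constant part of antibodies and let a macrophage engulf or kill what the antibody has marked. The activating receptors of the mouse carry no activating motif of their own and sit with a small adaptor, the Fc receptor gamma chain, whose tail holds an immunoreceptor tyrosine-based activation motif (ITAM). Src-family kinases phosphorylate the ITAM, Syk docks on it and starts the signal. Tyrobp, also called DAP12, is the second ITAM adaptor of myeloid cells and serves Trem2 and many other receptors. The inhibitory receptor encoded by Fcgr2b carries an inhibitory motif (ITIM) instead and brings in a lipid phosphatase that opposes the signal. Interferons are known to raise the transcripts of Fcgr1 and Fcgr4.

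The promoters of 3 of the genes are shown, those of Fcgr1 and Fcgr4 because their transcripts are known to respond to interferon, and that of Fcgr2b because its transcript had the largest difference between the genotypes. RefSeq start sites of the GRCm38.p6 build were available for 7 of the 8 genes, each with 250 bases before and 50 bases from the start site on. They gave 9 windows, since Fcgr3 and Syk have more than 1 start site. The windows are chr3:96293920-96294219 (minus strand) for Fcgr1, chr1:171018676-171018975 (plus strand) for Fcgr4 and chr1:170976022-170976321 (minus strand) for Fcgr2b. Capitals mark matches, on either strand, to TTCNNNGAA (the GAS motif of STAT factors), AANNGAAA (the core that interferon regulatory factors, IRFs, bind), its longer form GAANNGAAA, or GAGGAA (a core of sites of PU.1, the myeloid transcription factor).
Fcgr1: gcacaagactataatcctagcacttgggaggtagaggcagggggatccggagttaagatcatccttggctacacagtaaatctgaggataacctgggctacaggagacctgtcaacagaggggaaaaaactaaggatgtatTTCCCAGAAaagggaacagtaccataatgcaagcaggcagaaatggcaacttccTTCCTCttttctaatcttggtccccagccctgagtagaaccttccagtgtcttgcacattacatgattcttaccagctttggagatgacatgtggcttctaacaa
Fcgr4: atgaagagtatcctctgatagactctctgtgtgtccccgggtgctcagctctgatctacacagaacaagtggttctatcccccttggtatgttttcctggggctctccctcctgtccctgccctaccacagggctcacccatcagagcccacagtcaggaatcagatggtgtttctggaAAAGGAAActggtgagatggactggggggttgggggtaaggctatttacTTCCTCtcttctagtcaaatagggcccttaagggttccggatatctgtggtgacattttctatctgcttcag
Fcgr2b: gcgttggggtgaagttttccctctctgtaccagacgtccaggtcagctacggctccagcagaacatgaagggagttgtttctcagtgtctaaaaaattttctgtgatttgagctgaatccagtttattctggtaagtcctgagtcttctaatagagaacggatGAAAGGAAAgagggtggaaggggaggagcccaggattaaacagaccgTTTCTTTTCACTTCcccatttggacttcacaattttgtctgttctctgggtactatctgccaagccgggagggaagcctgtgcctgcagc

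In the Fcgr1 window the GAS match began at position -109 and a GAGGAA match, on the opposite strand, at -55, counted from the start site. In the Fcgr4 window the IRF core match began at -71 and a GAGGAA match, again on the opposite strand, at -22. The Fcgr2b window held the longer IRF core 3 times, from -87 on the strand printed and from -40 and -35 on the opposite strand, where both matches overlap and are marked as 1 run. Of the 7 genes, 1 had a GAS match, 2 an IRF core match (1 of them, Fcgr2b, in the longer form) and 5 a GAGGAA match, which Fcgr3, Trem2 and Syk had as well. A gene was counted when any of its windows matched, and the Syk match was in only 1 of its windows. The Fcer1g window held none. Over all 27025 genes with windows of this length, 9.55% had a GAS match, 26.7% an IRF core match, 8.68% the longer IRF core and 31.3% a GAGGAA match. Which gene has an IRF match thus depends on how the motif is spelled, and a match is a run of letters, not a measured binding site.

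Both genotypes had the transcripts of all 8 genes, and at nearly the same signal. Each gene was above the floor on both arrays, 7.68 in Oasl1-/- and 7.75 in WT on the log2 scale. The floor is the 95th percentile of 5267 negative control probe sets, which pool introns of normalization genes with antigenomic background probe sets. It lies well above the array medians (5.74 in Oasl1-/- and 5.72 in WT), so a gene below it is not shown to be absent. Differences are Oasl1-/- minus WT on that scale. The 8 differences ran from -0.22 to 0.09, with a median of 0.01, 5 above 0 and 3 below. None of the 8 genes differed by 1.5-fold or more, against 0.878% of the 6376 genes that exceeded the floor on 1 or both arrays (called detected from here on), so a count of 0 among 8 is also what that background gives. Of the 8, 7 differed by less than 0.1, as did 50.9% of all detected genes. That share is not matched for level, and differences vary less among bright genes. Their middle 90% ran from -0.37 to 0.21 near the level of Fcgr2b and from -0.08 to 0.11 near that of Fcer1g. With 1 array per genotype no difference could be tested, and in RNA of whole cultures fewer cells and less RNA per cell cannot be told apart.

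**Figure D1:**
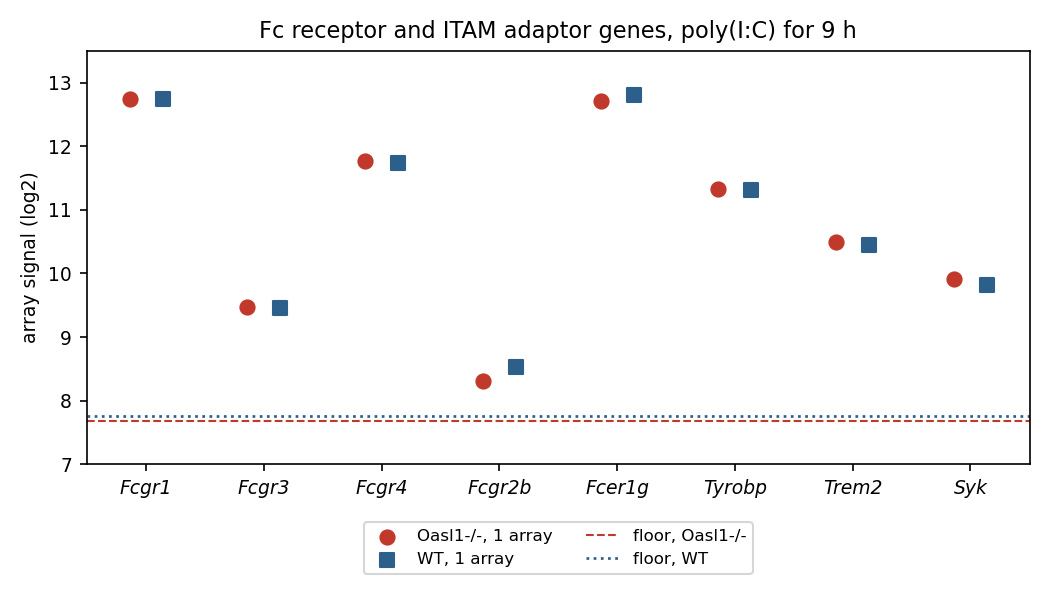
Array signal (log2) of the 8 genes in Oasl1-/- (circles) and WT (squares) macrophages, 1 array per genotype, with each array's floor as a line. The paired points nearly coincide for every gene but Fcgr2b (8.31 in Oasl1-/- and 8.54 in WT), and all lie above the floors of 7.68 and 7.75. Heights of different genes are not comparable, since each has its own probes.

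The activating IgG receptors had nearly the same signal in both genotypes. Fcgr1, the high-affinity IgG receptor (NM_010186, chromosome 3, positions 96086832 to 96097892, minus strand, NCBIM37 build), had 12.74 in Oasl1-/- and 12.74 in WT, a difference of -0.0043. Fcgr4, which binds IgG of the more inflammatory subclasses in mice (NM_144559, chromosome 1, positions 172949012 to 172959892, plus strand), had 11.76 in Oasl1-/- and 11.74 in WT, a difference of 0.02. Fcgr3, the low-affinity activating receptor (NM_010188, chromosome 1, positions 172981300 to 172989529, minus strand), had 9.47 in Oasl1-/- and 9.45 in WT, a difference of 0.01. Fcgr1 and Fcgr4, whose promoters are printed above, thus differed by 0.02 or less in size. The sign of the Fcgr1 difference was not fixed, since it became 0.04 when differences were centred on the median gene.

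Fcgr2b, the inhibitory IgG receptor, had the largest difference of the group. It (NM_001077189, chromosome 1, positions 172890689 to 172906678, minus strand) had 8.31 in Oasl1-/- and 8.54 in WT, a difference of -0.22, or 1.17-fold lower in Oasl1-/-. Differences at least this large in size were found for 17.9% of all detected genes. Fcgr2b was also the member closest to the floor, 0.63 above it in Oasl1-/- and 0.78 in WT, and differences vary more near the floor. The 2247 other genes with a mean level within 0.5 of it had a middle 90% of differences from -0.37 to 0.21, which holds the value of Fcgr2b. With the trend of the differences on level removed it was -0.14, and with the arrays quantile normalized -0.15. Its difference as measured was below those of the activating receptors by 0.22 (Fcgr1), 0.23 (Fcgr3) and 0.24 (Fcgr4). With the trend on level removed these gaps were smaller, the activating receptors being at -0.02 (Fcgr1), 0.06 (Fcgr3) and 0.02 (Fcgr4), against -0.14 for Fcgr2b. The extracellular parts of Fcgr2b and Fcgr3 are close in sequence, and the array's probes may take up both transcripts, so their separate values are uncertain.

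The ITAM adaptors were bright in both genotypes. Fcer1g, the gamma chain that Fcgr1, Fcgr3 and Fcgr4 need to reach the cell surface and to signal (NM_010185, chromosome 1, positions 173159703 to 173164480, minus strand), had 12.71 in Oasl1-/- and 12.81 in WT, a difference of -0.09, or 1.07-fold lower. It was the only 1 of the 8 outside the middle 90% of its 144 neighbours in level, which ran from -0.08 to 0.11. By its definition 10% of genes lie outside such a range. Tyrobp (NM_011662, chromosome 7, positions 31198807 to 31202604, plus strand) had 11.32 in Oasl1-/- and 11.31 in WT, a difference of 0.01, which became -0.0065 after quantile normalization. The 2 adaptors therefore had small differences, and only that of Fcer1g kept 1 sign under all the alternatives that could change it.

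Trem2 and Syk had slightly higher signals in Oasl1-/-. Trem2, a receptor for lipids and lipoproteins that signals through Tyrobp (NM_031254, chromosome 17, positions 48485726 to 48491598, plus strand), had 10.50 in Oasl1-/- and 10.44 in WT, a difference of 0.06. Syk, the tyrosine kinase on which both adaptors converge (NM_011518, chromosome 13, positions 52678870 to 52744161, plus strand), had 9.92 in Oasl1-/- and 9.82 in WT, a difference of 0.09, or 1.07-fold higher. Both values lay inside the middle 90% of genes of similar level, from -0.22 to 0.19 for Trem2 and from -0.26 to 0.19 for Syk. Each stayed above 0 under all 11 alternatives. Of these, only centring, removing the loess trend, quantile normalization and adding 32 to the linear values could change a member's difference.

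**Figure D2:**
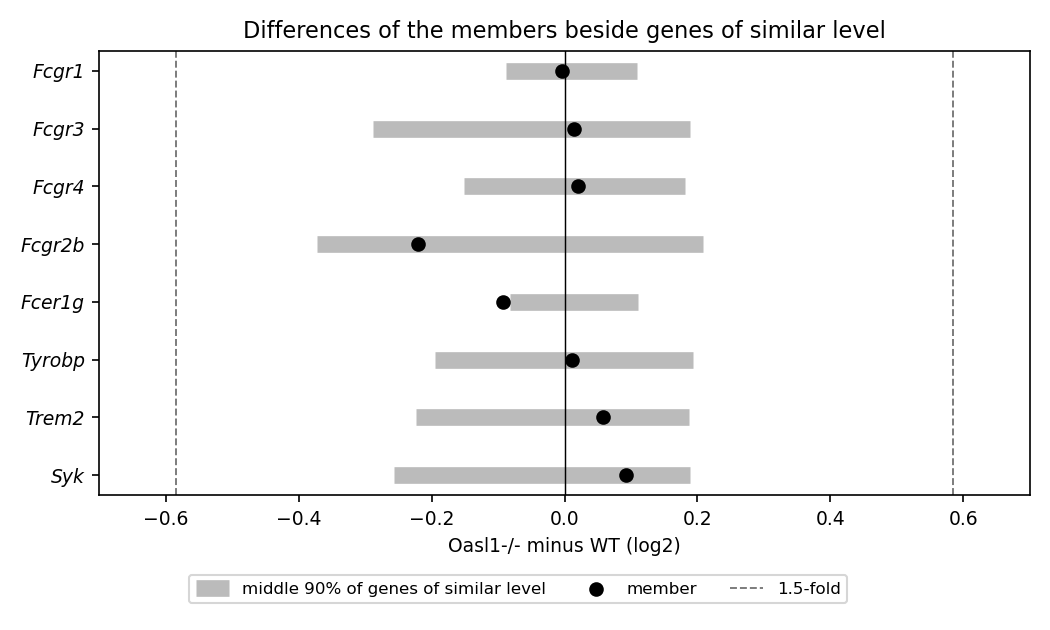
Difference between Oasl1-/- and WT (log2) of each of the 8 genes (points), with the middle 90% of differences of all genes whose mean level is within 0.5 of it (grey bars) and 1.5-fold as dashed lines. Fcer1g (-0.09) lies just outside its bar, the other 7 inside theirs, and all 8 lie far inside the 1.5-fold lines.

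Position was a feature that the choice of genes did not use. Fcgr2b, Fcgr4, Fcgr3 and Fcer1g lie within 274 kb of each other on chromosome 1. Of 37 other genes within 0.5 Mb of that span, 20 were above the floor, 10 of them higher and 10 lower in Oasl1-/-, with a median difference of 0.0048 and none at 1.5-fold. The largest difference there was that of EG665955, a gene model listed between Fcrla and Fcgr2b at positions 172878178 to 172879749, with 9.97 in Oasl1-/- and 9.51 in WT, a difference of 0.46. Atf6, a stress-activated transcription factor on the same side, had 9.96 in Oasl1-/- and 9.80 in WT. Tomm40l, close to Fcer1g, had near equal values (7.91 in Oasl1-/- and 7.92 in WT). The B cell genes Fcrla (4.37 in Oasl1-/- and 4.28 in WT) and Fcrlb (5.85 in Oasl1-/- and 5.82 in WT), which lie beside Fcgr2b, were below the floor on both arrays. These neighbours, EG665955 included, were named after their values were seen.

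**Figure D3:**
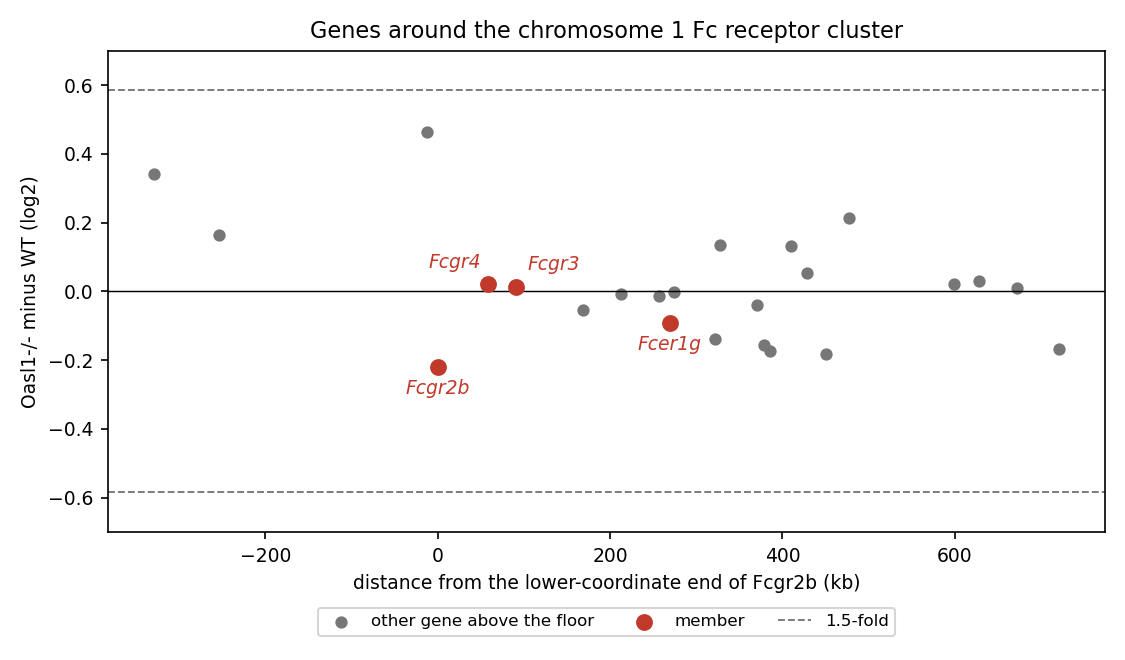
Difference between Oasl1-/- and WT (log2) against distance in kb along chromosome 1, counted from the lower-coordinate end of Fcgr2b, for detected genes. The 4 Fc receptor genes (red) lie between -0.22 and 0.02, and the 20 other genes (grey) between -0.18 and 0.46, on both sides of 0.

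The Trem genes on chromosome 17 differed among themselves in whether they were detected at all. Of the genes with Trem or Treml symbols, only Treml2, a receptor of the same family, was above the floor besides Trem2. It had 8.01 in Oasl1-/- and 7.79 in WT, a difference of 0.21. Trem1, an amplifier of inflammation that also uses Tyrobp, was below the floor with 4.80 in Oasl1-/- and 4.63 in WT. Trem3, Treml1 and Treml4 were below it too, at 5.39, 6.58 and 5.92 in Oasl1-/- and 5.54, 6.53 and 6.03 in WT. The array thus gave a level for 2 of these 6 genes, and Trem3, Treml1 and Treml4 were named after their values were seen. Of 16 other genes within 0.5 Mb of Trem2, 5 were above the floor, Treml2 among them. Of the 5, 1 was higher and 4 were lower in Oasl1-/-, with a median difference of -0.22 and none at 1.5-fold. B430306N03Rik, between Treml2 and Trem2, had 9.52 in Oasl1-/- and 9.74 in WT, and was named after its values were seen.

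Few other Fc receptor genes were detected. Of 15 measured, 12 were below the floor on both arrays, among them Fcer1a (3.34 in Oasl1-/- and 3.70 in WT) and Ms4a2 (3.20 in Oasl1-/- and 3.20 in WT), the alpha and beta chains of the high-affinity IgE receptor of mast cells, both named after their values were seen. The 3 above it were Fcgrt, the neonatal Fc receptor that recycles IgG (9.16 in Oasl1-/- and 9.27 in WT, difference -0.11), Trim21, the cytosolic antibody receptor and ubiquitin ligase (10.90 in Oasl1-/- and 10.88 in WT, difference 0.02), and Fcrls, an Fc receptor-like protein with scavenger receptor sequence (10.25 in Oasl1-/- and 10.59 in WT, difference -0.34, or 1.27-fold lower).

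Another list was drawn up for receptors that signal through ITAM adaptors, or through an ITAM-like motif of their own, and for other adaptors. Of its 30 measured genes, 12 were above the floor on both arrays. Whether each listed receptor signals in this way was not checked, Treml2 (difference 0.21), the highest of the 12, among them. Of the 12, 9 were lower in Oasl1-/- and 3 higher, a split of few genes, while 63.5% of all detected genes were lower. The median difference of the 12 was -0.13, against -0.04 over all detected genes. With differences centred on the median gene, that of the 12 was -0.08. None passed 1.5-fold. Cd300ld had 9.25 in Oasl1-/- and 9.72 in WT (difference -0.47), and Cd300lb 9.06 in Oasl1-/- and 9.44 in WT (difference -0.38). Clec5a, a lectin that uses Tyrobp, had 10.75 in Oasl1-/- and 11.00 in WT (difference -0.25). Clec7a, the beta-glucan receptor Dectin-1, was higher, with 8.62 in Oasl1-/- and 8.53 in WT (difference 0.09). Oscar, a partner of Fcer1g, was below the floor at 5.29 in Oasl1-/- and 5.25 in WT, and so was the adaptor Hcst, also called DAP10, at 5.90 in Oasl1-/- and 6.07 in WT.

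Of 14 Src-family and Syk-family kinases and regulators, 8 were detected, 4 higher and 4 lower, with a median of -0.0095 and none at 1.5-fold. Lyn had 11.02 in Oasl1-/- and 10.98 in WT (difference 0.04). Fgr, another Src-family kinase of myeloid cells, was below the floor, at 6.52 in Oasl1-/- and 6.83 in WT. Fyn had 9.10 in Oasl1-/- and 8.97 in WT (difference 0.13). Src was above the floor in Oasl1-/- alone, with 7.71 in Oasl1-/- and 7.64 in WT, and since its Oasl1-/- value is under the WT floor of 7.75 no fold is given. Csk, which holds the Src family in check, had 9.83 in Oasl1-/- and 9.87 in WT (difference -0.04), and Cd37, a tetraspanin, 9.81 in Oasl1-/- and 9.88 in WT (difference -0.07). Zap70, the relative of Syk in T cells, was below the floor on both arrays (5.49 in Oasl1-/- and 5.28 in WT), and was named after its values were seen.

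Downstream of Syk, 30 of 39 genes were detected, 12 higher and 18 lower, with a median of -0.04 and none at 1.5-fold. Vav3, an exchange factor for small GTPases, had 9.26 in Oasl1-/- and 8.91 in WT, a difference of 0.35. Its relative Vav1 had 11.20 in Oasl1-/- and 11.11 in WT (difference 0.08). Pik3cd, the catalytic subunit of a leukocyte phosphoinositide kinase, had 9.74 in Oasl1-/- and 9.59 in WT (difference 0.14). Malt1, the protease of the Card9 and Bcl10 complex, had 9.16 in Oasl1-/- and 9.55 in WT (difference -0.39), and the scaffold Gab2 8.28 in Oasl1-/- and 8.59 in WT (difference -0.30). Btk had 8.61 in Oasl1-/- and 8.71 in WT (difference -0.10), and its substrate Plcg2 9.22 in Oasl1-/- and 9.24 in WT (difference -0.02). Card9, which links Syk to NF-kB, was below the floor (7.02 in Oasl1-/- and 6.94 in WT).

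Among the genes that restrain these receptors, 23 of 31 were detected, 7 higher and 16 lower, with a median of -0.05 and none at 1.5-fold. Inpp5d, the lipid phosphatase SHIP1 that the Fcgr2b tail recruits, had 9.97 in Oasl1-/- and 10.08 in WT (difference -0.12). Ptpn6, the phosphatase SHP-1, had 11.55 in Oasl1-/- and 11.43 in WT (difference 0.12). Sirpa, the receptor for the "do not eat me" signal of target cells, had 12.14 in Oasl1-/- and 12.19 in WT (difference -0.05), and Pirb 10.55 in Oasl1-/- and 10.57 in WT (difference -0.02). The lowest differences were those of the ITIM receptors Clec4a2 (7.80 in Oasl1-/- and 8.33 in WT, difference -0.53) and Pilra (7.89 in Oasl1-/- and 8.33 in WT, difference -0.44). The highest were those of Cd33 (8.32 in Oasl1-/- and 8.13 in WT, difference 0.19) and Cd200r1 (9.62 in Oasl1-/- and 9.44 in WT, difference 0.19). The paired immunoglobulin-like, Cd300, Sirp and Pilr receptors have close paralogs, so the values of single genes are uncertain.

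Ligands and processing enzymes of Trem2 were listed together with other genes, such as Gpnmb and Ms4a4a. Of the 9 genes of this Trem2 list 8 were detected, 4 higher and 4 lower, with a median of 0.02. Apoe, a lipoprotein that Trem2 binds, had 13.03 in Oasl1-/- and 13.07 in WT (difference -0.04). Adam10, a protease that sheds Trem2, had 10.37 in Oasl1-/- and 10.28 in WT (difference 0.09), and Gpnmb, a lysosomal glycoprotein of lipid-laden macrophages, 12.75 in Oasl1-/- and 12.67 in WT (difference 0.08). Ms4a4a, a tetraspan protein linked to soluble Trem2 in humans, had 9.77 in Oasl1-/- and 10.22 in WT (difference -0.45), and Ms4a6d 12.07 in Oasl1-/- and 12.22 in WT (difference -0.15).

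Over the 6 pathway lists together, 84 of 137 genes were detected, and 63.1% of these were lower in Oasl1-/-, against 63.5% of all detected genes. No gene passed 1.5-fold. By the measured differences, 11 of the 84 were at least 1.2-fold different, or 13.1%, against 11.6% of all detected genes. Of the 11, 10 were lower (Cd300ld, Cd300lb, Cd300lf, Clec4a2, Pilra, Fcrls, Ms4a4a, Malt1, Gab2 and Tec), which is 11.9% of the 84, against 8.91% of all detected genes. The remaining 1, Vav3, was higher (1.19% of the 84, against 2.65% of all detected genes). Tec was above the floor in WT alone (7.58 in Oasl1-/- and 7.87 in WT), so that its signal is at least 1.14-fold lower in Oasl1-/-. With Tec at that bound, 10 of the 84 were past 1.2-fold, 9 of them lower. Tec and Cd300lf were named after their values were seen.

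**Figure D4:**
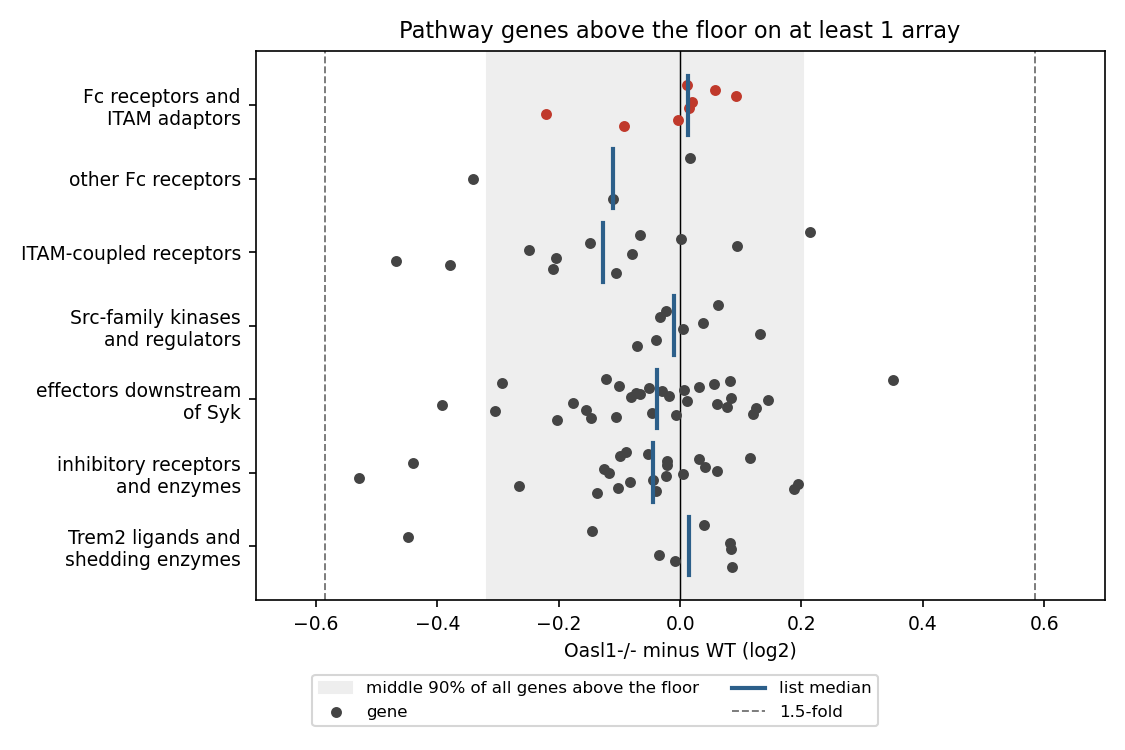
Difference between Oasl1-/- and WT (log2) of every detected gene in each list, with the list median (blue bar), the middle 90% of all detected genes (grey band, -0.32 to 0.20) and 1.5-fold as dashed lines. The 8 Fc receptor and ITAM adaptor genes (red) all lie inside the band, and no gene of any list reaches a dashed line.

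The genotype and cell type labels were checked on the same arrays. Oasl1 had 11.13 in Oasl1-/- and 12.59 in WT, 2.76-fold lower, over 29 probes that are not known to lie in the deleted part. All 9 measured macrophage markers were above the floor on both arrays, with differences from -0.14 to 0.07. NK cells and mast cells also use these adaptors. None of 6 NK cell markers was above the floor, and of 7 mast cell and basophil markers only Hdc, an enzyme that macrophages also make, was above it (9.90 in Oasl1-/- and 9.58 in WT). None of 6 B cell, 5 T cell and 6 dendritic cell markers was above the floor. Of 3 platelet markers Pf4 was (10.94 in Oasl1-/- and 11.09 in WT). Of 10 neutrophil markers 2 were, Ngp in Oasl1-/- alone (7.79 in Oasl1-/- and 6.90 in WT) and Csf3r (8.68 in Oasl1-/- and 9.07 in WT). The summed linear signal over the 10 was 1039 in Oasl1-/- and 962 in WT. Csf3r, the brightest of the 10 on both arrays and lower in Oasl1-/-, weighs most in that sum. The sum therefore does not show how most of the others differed. Of the 8 below the floor on both arrays, S100a8 (6.85 in Oasl1-/- and 6.24 in WT), S100a9 (6.31 and 5.43) and Elane (5.34 and 4.70) were higher in Oasl1-/-. Ly6g, Mpo and Camp were higher too, and Retnlg and Cxcr2 lower. These 8 were named after their values were seen. The part of such other cells in the differences above was not tested.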

How the data were processed

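The values are log2 signals per probe set as deposited by the authors, who used GCOS and RMA per the submitters' processing notes, with no version. RMA corrects the background, normalizes and summarises probes, and it compresses differences of dim probe sets. The sources used here do not state whether RMA was run on both arrays jointly. A second deposited table held the same log2 values, and the authors' log2 ratio equalled Oasl1-/- minus WT in all 35556 probe sets. Values ran from 1.89 to 13.7.

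Of the probe sets, 25305 had 1 gene symbol, 2 several and 10249 none. Symbols were updated through RefSeq accessions, synonyms and symbols of GRCm38.p6, and 1714 kept the deposited name. Of 22014 genes, 1740 had more than 1 probe set and took the one with the highest mean. The number of probes per probe set is as deposited. Coordinates of genes are those of the deposited table, whose transcript descriptions name NCBIM37. Fold thresholds stood in for calls, since 1 array per genotype gives no p-value. A fold of a gene above the floor on 1 array is a lower bound against the other array's floor. Counts of genes past a fold used the measured differences instead, save where a bound is named. Counting was tested on simulated data.

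The genes and lists were chosen with earlier results of these data known. Named genes were the 8 genes, Oasl1, a set of core genes, and of each list the 2 highest and 2 lowest differences above the floor, and the text says where a gene was picked later. Promoter motifs, several spellings of the IRF core among them, were chosen after the data were seen. Protein sequences were not analysed here, and values of some genes are not reported here. Alternatives were the second table, centring, a loess trend (span 0.3), quantile normalization, the mean of probe sets, log2 of the linear value plus 32, 3 other floors, and folds of 1.2 and 2. Tables were computed in pandas 2.3.3 and NumPy 2.4.6 under Python 3.11.15, the loess in statsmodels 0.14.6, ranks in SciPy 1.17.1 and plots in Matplotlib 3.10.9.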

Additional observations from a re-analysis of the deposited data

How the results depend on the processing

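No paired analysis was possible because each genotype has 1 array and no result comes from a test. For the same reason no array could be left out. None of the 8 genes reached the fold threshold under any of the 11 alternatives, including folds of 1.2 and 2. Their median difference ran from 0.01 to 0.06. For these genes only centring, the loess trend, quantile normalization and the linear offset could change a difference. Each has 1 probe set, above every floor, and the second table holds the same values. Under the same alternatives Fcgr2b ran from -0.22 to -0.14, Fcer1g from -0.12 to -0.05, Syk from 0.09 to 0.14, Trem2 from 0.06 to 0.10, Fcgr4 from 0.02 to 0.06 and Fcgr3 from 0.01 to 0.06. Fcgr1 (-0.03 to 0.04) and Tyrobp (-0.0065 to 0.06) changed sign under 1 alternative each, the centring on the median gene and the quantile normalization.

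At 1.2-fold, 1 of 3 detected other Fc receptors was past the threshold, 2 of 12 ITAM-coupled receptors and 4 of 30 effectors downstream of Syk. So were 3 of 23 inhibitory genes, 1 of 8 genes of the Trem2 list and 0 of 8 kinases and regulators. Over all detected genes the share was 11.6%. At 1.5-fold the count was 0 in every list. With no floor, and with the array median as the floor, 1 ITAM-coupled receptor passed 1.5-fold, Clec4n (5.40 in Oasl1-/- and 6.01 in WT), which is below the floor on both arrays and was named after its values were seen. The median of the ITAM-coupled receptors ran from -0.13 to -0.08 and that of the inhibitory genes from -0.05 to -0.0007. The medians of the other Fc receptors (-0.11 to 0.02), the kinases (-0.02 to 0.03) and the effectors (-0.05 to 0.0066) took both signs. Over all genes the number past 1.5-fold, 56, became 34 with the linear offset, 27 with the floor on both arrays, 170 with the array median as the floor and 263 with no floor. Which of these differences would recur in another pair of cultures cannot be judged from 1 array per genotype.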

Other observations

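Of 9 measured Cd300 genes, which encode paired immunoglobulin-like receptors, 7 were detected, all within 244 kb on chromosome 11, and these 7 were lower in Oasl1-/-. Of the 7, 5 are in the lists: Cd300ld (-0.47), Cd300lb (-0.38), Cd300lf (8.33 in Oasl1-/- and 8.60 in WT, difference -0.27), Cd300e (8.93 in Oasl1-/- and 9.14 in WT, difference -0.21) and Cd300a (7.69 in Oasl1-/- and 7.80 in WT, difference -0.10). The other detected genes were Cd300c2 (9.85 in Oasl1-/- and 9.98 in WT, difference -0.12) and Cd300ld5 (9.05 in Oasl1-/- and 9.32 in WT, difference -0.27). The highest value of any of the 7 under any alternative was -0.02. Cd300c (6.40 in Oasl1-/- and 6.29 in WT) and Cd300lg (6.15 in Oasl1-/- and 6.12 in WT) were below the floor on both arrays. Cd300ld, Cd300lb and Cd300e are activating receptors, and Cd300lf and Cd300a carry ITIMs. None reached 1.5-fold, 63.5% of all detected genes were lower, the separate values of these paralogs are uncertain, and the family was picked after its values were seen.

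Of the detected C-type lectin receptors in the lists with Clec symbols, Clec7a was higher in Oasl1-/- (difference 0.09), and Clec4a2 (-0.53) and Clec5a (-0.25) were lower. Of the others, Clec4e, the receptor Mincle, had 12.09 in Oasl1-/- and 12.17 in WT (difference -0.08), Clec4d had 11.42 in Oasl1-/- and 11.63 in WT (difference -0.20), and Clec12a had 11.90 in Oasl1-/- and 11.94 in WT (difference -0.05). All 6 were above the floor on both arrays, and Clec4e, Clec4d and Clec12a were named after their values were seen.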
